A study of Mus musculus with 26 samples.

Results

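The genes examined here were 10 components of the basement membrane, the sheet of extracellular matrix that underlies epithelia. They were the laminin chains Lama1, Lama5, Lamb1 and Lamc1, the collagen IV chains Col4a1 and Col4a2, the nidogens Nid1 and Nid2, perlecan (Hspg2), and Sparc. They were taken by name, as 10 of the 55291 gene symbols in each of the 2 tables of RNA-seq counts. Earlier results of these data were known when they were chosen. The shares of all genes given beside counts of the 10 are therefore no test of the list. All 10 passed the filter on low counts in both tables, in which 16641 and 13268 genes were tested.

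RNA was sequenced from mouse embryonic stem cells (ESCs) of the E14 line (E14TG2a) and from neural progenitor cells (NPCs) obtained from them by 2 days of differentiation. The CTCF rescue lines carry E14 CTCF-AID2, in which both alleles of the chromatin architecture protein CTCF have a degron tag, OsTIR1 F74G at Rosa26 on 1 allele, an Hb9 reporter, and a CTCF transgene that doxycycline induces. WT and ZF1 mutant (ΔZF1, without zinc finger 1) rescue cells were each a single clone. Treatment lasted 24 h and combined 5-Ph-IAA (1 µM), which degrades the tagged CTCF, with Dox (1 µg/ml), and the ESC groups (ESC-WT and ESC-ΔZF1) and NPC groups (NPC-WT and NPC-ΔZF1) had 2 libraries each. The other cells were parental E14 WT and the Podxl pA and Grb10 pA lines, in which an eGFP and SV40pA cassette inserted after the first coding exon on both alleles truncates the RNA of the gene. These were not treated, and ESC E14, ESC Podxl pA, ESC Grb10 pA, NPC E14, NPC Podxl pA and NPC Grb10 pA had 3 libraries each. ESCs grew on gelatin in N2B27 with LIF, CHIR99021 and PD0325901, and NPCs on laminin-coated plates in N2B27. Cell type, medium additives and coating therefore cannot be told apart. The study calls its RNA-seq replicates biological, and the labels do not say whether they were separate cultures. The p-values measure the spread between libraries within groups, estimated over all groups of a table and not only the groups compared.

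Laminins are trimers of an α, a β and a γ chain that polymerize on the cell surface through integrins and dystroglycan. The collagen IV network is cross-linked above them, and nidogens and perlecan bridge both. In the early mouse embryo, primitive endoderm and its descendants, above all parietal endoderm, secrete large amounts of the laminin with Lama1, Lamb1 and Lamc1 chains and of collagen IV, whereas Lama5 is the α chain of most later epithelia. Sparc binds collagen IV and is another abundant product of parietal endoderm.

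The genes lie on 9 chromosomes of GRCm38, and only Col4a1 and Col4a2 are neighbours. Lama1 is at 17:67697259-67822647 (plus strand), Lama5 at 2:180176373-180225859 (minus), Lamb1 at 12:31265234-31329644 (plus), Lamc1 at 1:153218922-153332786 (minus), Nid1 at 13:13437551-13512269 (plus), Nid2 at 14:19751265-19811787 (plus), Hspg2 at 4:137468769-137570630 (plus) and Sparc at 11:55394500-55423183 (minus). Col4a1, at 8:11198423-11312826 on the minus strand, and Col4a2, at 8:11312805-11449287 on the plus strand, are annotated head to head, with starts that overlap by 22 bases. Reads were counted without strand, so reads on that overlap, and on the parts of Lamc1, Col4a1, Col4a2, Nid1 and Nid2 that overlap annotated genes of the other strand (Gm8818, Gm15418, Gm15419, Gm48682 and Rtraf), were not told apart.

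The shared start of the collagen IV pair is shown because these 2 genes moved together in the comparisons given later. The 30 bases at chr8:11312801-11312830 of the plus strand, from RefSeq on GRCm38.p6, have the 22 bases that both transcripts hold in capitals.
Col4a1 and Col4a2 shared start: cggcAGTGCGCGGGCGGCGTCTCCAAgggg
RefSeq promoter entries matched 7 of the 10 genes. Lama1, Lamc1 and Nid2 had none. Both Lamb1 and Lama5 were higher in NPCs than in ESCs in every line. Between NPC-ΔZF1 and NPC-WT, Lamb1 was higher and Lama5 did not differ by the test used. For contrast, the sequences before their starts are printed on the strand of the gene (Lamb1 chr12:31265043-31265233, plus; Lama5 chr2:180225860-180226109, minus), with motif matches on either strand in capitals.
Lamb1 upstream: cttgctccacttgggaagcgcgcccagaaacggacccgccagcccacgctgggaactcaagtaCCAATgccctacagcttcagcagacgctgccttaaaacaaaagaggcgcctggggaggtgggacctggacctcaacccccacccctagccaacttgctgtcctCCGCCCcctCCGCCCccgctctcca
Lama5 upstream: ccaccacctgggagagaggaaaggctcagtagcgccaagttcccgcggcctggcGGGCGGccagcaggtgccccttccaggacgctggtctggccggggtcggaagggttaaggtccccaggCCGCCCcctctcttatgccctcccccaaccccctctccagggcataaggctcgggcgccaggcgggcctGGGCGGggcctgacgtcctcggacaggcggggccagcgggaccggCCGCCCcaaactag
The motifs searched were GGGCGG, a site type of Sp factors, CCAAT, which NF-Y binds, the GATA factor motifs AGATAA as well as the variant TGATAA, and finally, for AP-1, TGACTCA. In 300 bases around the start, GGGCGG was found in Lama5 (4 times), Hspg2 (5), Col4a2 (3), Lamb1 (2), Col4a1 (1) and Nid1 (1), and CCAAT in Col4a1, Col4a2, Lamb1 and Nid1 (1 each). Both strands were searched, and no match overlapped another within a window. The windows of Col4a1 and Col4a2 overlap, and the GGGCGG of Col4a1 is the same site, within the shared start printed above, as 1 of the 3 of Col4a2. Of all 32851 promoters of this length, 35.7% held GGGCGG and 37.4% CCAAT. The motif AGATAA was in 11.2% of all promoters, the variant TGATAA in 9.05% and the AP-1 motif in 5.20%, and these 3 were found in none of the 7, and Sparc held none of the motifs in this window.

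Counts on Ctcf do not tell the tagged gene from the transgene. They stood at 449 to 577 CPM (gene counts scaled by library size) in WT rescue and 785 to 860.0 in ΔZF1 rescue. The level of Ctcf RNA and the CTCF form thus cannot be told apart. For protein, the study reports similar amounts of the WT and ΔZF1 transgene products by Western blot. Podxl and Grb10 were lower in the lines that truncate them. Podxl stood at 232 to 259 CPM in NPC E14 and 20.8 to 24.3 in NPC Podxl pA, and Grb10 at 769 to 814 in NPC E14 and 52.2 to 59.4 in NPC Grb10 pA. A rescue library held 6425179 to 28730435 counts on genes, and each of the others 1907505 to 8845087. ESC identity markers (Pou5f1, Nanog and 6 others) were lower in NPCs than in ESCs for 8 of 8 genes in all 5 lines. Of 8 neural progenitor markers, 5 were tested in the rescue lines, and 4 rose and 0 fell from ESC-WT to NPC-WT. In the ΔZF1 line all 5 rose. In the untreated lines 4 were tested, and 3 rose in each, with 1 lower in Grb10 pA. Sox1, the earliest marker of neural fate, averaged 6.13 and 19.4 CPM in ESC-WT and NPC-WT. It averaged 4.72 and 79.3 in ESC E14 and NPC E14. The neural genes Hes5 and Fabp7 had at most 2 counts in any library, so in RNA the NPC label was met in part. By flow cytometry, the study reports Sox1 protein in most NPCs of the rescue lines without treatment, and Sox1-expressing NPCs in both truncation lines. NPC-WT replicates 1 and 2 stood apart, with 9 of the 10 genes higher in replicate 2, and which of them is unusual cannot be told. The effect of leaving out a library is given where a result rests on it. CPM was scaled by TMM within each table, and levels are not tested across the 2 tables. In RNA from whole cultures, fewer cells of a type and less RNA per cell cannot be told apart.

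Together the 10 genes took 0.187 to 0.237% of the counts in rescue ESCs, 0.375 to 0.491% in NPC-WT and 0.987 to 1.01% in NPC-ΔZF1. In the untreated lines they took 0.16 to 0.223% in ESCs and 0.244 to 0.349% in NPCs. Per kb of all annotated exons joined, Lamc1 had the highest level of the 4 laminin chains in every group and Lamb1 the lowest in all 5 ESC groups. Both orders depend on the length used for Lamb1. Per kb of the longest transcript, the ratio of Lamb1 to Lamc1 in NPC-WT went from 0.693 ± 0.0111 to 1.09, so that Lamb1 was the higher there, and in ESC-WT Lamb1 (16.0 and 13.7 CPM per kb) was above Lama5 (10.0 and 10.5). Lamc1 stood at 67.9 ± 2.82 CPM per kb (mean ± SD, n = 3) in ESC E14, where Lamb1 stood at 1.86 ± 0.308, Lama1 at 8.15 ± 0.934 and Lama5 at 10.8 ± 0.682. In NPC-ΔZF1 the levels per kb (n = 2) were 179.9 ± 3.08 for Lamc1, 149 ± 4.65 for Lama1, 101 ± 0.434 for Lamb1 and 41.7 ± 0.936 for Lama5. The α chain with the higher level per kb was Lama5 in NPC-WT, where the ratio of Lama1 to Lama5 was 0.455 ± 0.0651, and Lama1 in NPC-ΔZF1, where it was 3.57 ± 0.0313. The ratio of Lamb1 to Lamc1 was 0.0274 ± 0.0049 in ESC E14 and 0.436 ± 0.0136 in NPC E14, or 0.0432 and 0.688 with the longest transcript. With the longest transcript the ratio of Lama1 to Lamb1 in NPC-ΔZF1 changed from 1.47 ± 0.0395 to 0.87.

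**Figure D1:**
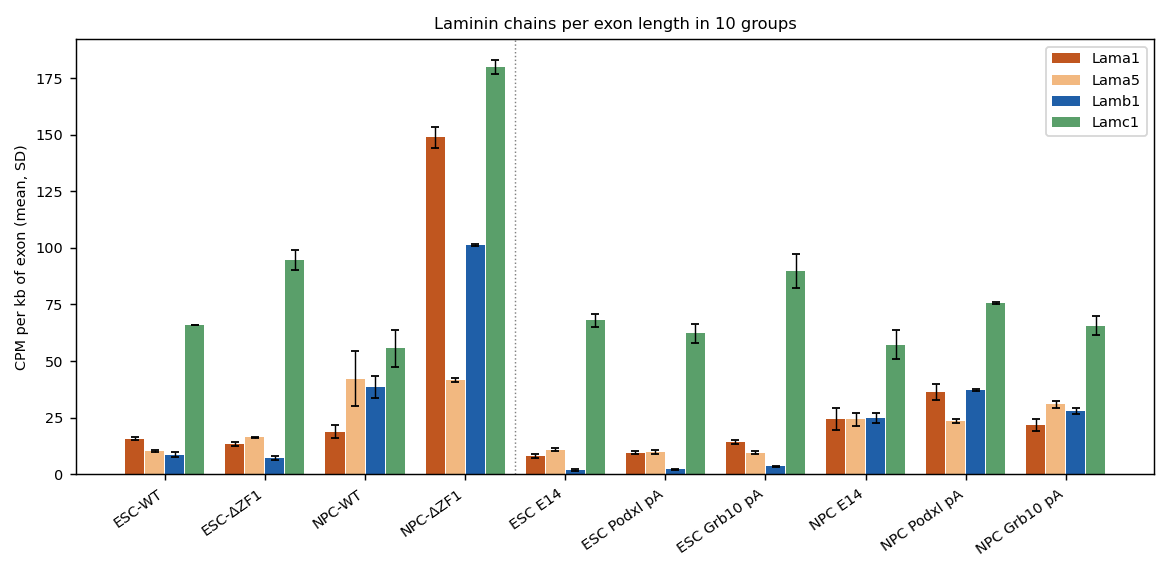
Bars give the mean CPM per kb of exon of 4 laminin chains in the 10 groups, with SD as error bars (2 libraries in the rescue groups left of the dotted line, 3 in the others). The bars of Lama1, Lamb1 and Lamc1 in NPC-ΔZF1 (149 ± 4.65, 101 ± 0.434 and 179.9 ± 3.08) stand above those of every other group, and the Lama5 bar there (41.7 ± 0.936) stands beside 42.2 ± 12.2 in NPC-WT.

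The collagen IV chains kept close to each other. The ratio of Col4a1 to Col4a2 per kb lay between 1.33 ± 0.165 in ESC Grb10 pA and 2.00 ± 0.0783 in ESC-ΔZF1 (mean ± SD), while the level of Col4a1 spanned 3.61 ± 0.997 to 303 ± 0.482 CPM per kb over the same 10 groups. The nidogens did not: the ratio of Nid1 to Nid2 lay between 0.0439 ± 0.00524 in NPC Grb10 pA and 0.361 ± 0.0856 in NPC-WT. Across the 26 libraries, centred within each table, Col4a1 and Col4a2 had a Pearson r of 0.992 and Lamb1 and Col4a1 of 0.967, whereas Lamb1 and Nid1 had -0.882. These values describe libraries that share groups, cell type and depth, and carry no test.

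The first comparisons asked what happened to the 10 genes when ESCs became NPCs. Genes were called that changed by 0.5 or more on the log2 scale, up or down, with a Benjamini-Hochberg adjusted p no higher than 0.05 in edgeR's quasi-likelihood test. With 2 or 3 libraries per group, groups that do not overlap are no test of a change. Their share over all genes was not computed. In the WT rescue line, 6 of the 10 genes rose, where 22.0% of all genes tested rose, and Nid1 and Nid2 fell, where 19.9% of all genes fell. Both collagen IV chains were higher in every NPC-WT library than in any ESC-WT library. Col4a1 had 118 and 67.6 CPM in ESC-WT and 415 and 634 in NPC-WT, which is 2.51 ± 0.26 on the log2 scale (change ± SE, adjusted p = 4.05e-05), and Col4a2 had 53.0 and 29.4 and 252 and 379 (2.97 ± 0.27, adjusted p = 1.79e-05). Among the laminin chains Lama5 rose from 114 and 120.0 to 382 and 579 CPM (2.04 ± 0.17, adjusted p = 9.41e-06) and Lamb1 from 92.5 and 79.0 to 347 and 417 (2.16 ± 0.13, adjusted p = 1.63e-06). Lama1 (157 and 148 against 163 and 201 CPM; 0.25 ± 0.12, adjusted p = 0.109) and Lamc1 (545 and 547 against 413 and 508; -0.25 ± 0.11, adjusted p = 0.102) were not called. Hspg2 rose by 2.35 ± 0.18 and Sparc by 1.18 ± 0.11 on the log2 scale. Nid2 fell from 292 and 305 to 119 and 153 CPM (-1.14) and Nid1 from 104 and 94.8 to 67.5 and 61.4 (-0.62).

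In parental E14, 5 of the 10 rose (background 16.5%) and Nid1 and Nid2 fell (background 16.3%). Lamb1 went from 20.5, 14.9 and 19.8 CPM in ESC E14 to 229, 271 and 242 in NPC E14, a log2 fold change of 3.78 ± 0.11 (adjusted p = 6.59e-20), and Col4a1 from 32.1, 30.5 and 31.1 to 313, 369 and 367 (3.49 ± 0.13, adjusted p = 2.79e-18). Col4a2 rose by 3.18, Lama1 by 1.58 and Lama5 by 1.17 on the log2 scale. Nid1 dropped from 112.5, 110.1 and 111.1 to 22.7, 27.5 and 28.0 CPM (-2.08 ± 0.12), and Nid2 fell by 0.55, past the size cutoff except when ESC E14 replicate 1 was left out. Hspg2 (0.28 ± 0.13, adjusted p = 0.0711) and Sparc (-0.10 ± 0.082, adjusted p = 0.338) had groups that overlapped, and Lamc1, with 579.6, 571 and 535 CPM in ESC E14 and 423, 528 and 472 in NPC E14, was below the size cutoff (-0.24 ± 0.084, adjusted p = 0.0192). The WT rescue and parental comparisons thus gave values of Lama1 of 0.25 and 1.58, of Hspg2 of 2.35 and 0.28, and of Sparc of 1.18 and -0.10, in separate tables whose difference was not tested.

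In the ΔZF1 rescue line, 8 of the 10 rose from ESCs to NPCs (background 20.4%), Nid1 fell (background 16.9%; -0.79), and Nid2 was not called (-0.28 ± 0.12, adjusted p = 0.0923). The log2 rises were 4.72 for Col4a2, 4.60 for Col4a1, 3.83 for Lamb1, 3.47 for Lama1, 1.74 for Sparc, 1.71 for Hspg2, 1.36 for Lama5 and 0.92 for Lamc1. In Podxl pA, 6 rose (background 17.1%) and Nid1 fell (background 14.7%), with Lamb1 at 4.12 ± 0.11, Col4a1 at 3.96, Col4a2 at 3.90, Lama1 at 1.93, Lama5 at 1.27, Hspg2 at 0.68 and Nid1 at -1.57. Lamc1 (0.28), Nid2 (-0.40) and Sparc (0.19) were not called there. In Grb10 pA, 5 rose (background 17.2%) and Nid1 fell (background 17.4%), with Lamb1 at 3.01 ± 0.10, Col4a1 at 3.05, Col4a2 at 2.78, Lama5 at 1.69, Lama1 at 0.61 and Nid1 at -2.41. Hspg2 (0.48), Lamc1 (-0.45), Nid2 (-0.11) and Sparc (0.37) were not called there, and Hspg2 was called without ESC Grb10 pA replicate 2 or NPC Grb10 pA replicate 1, and Lamc1 without ESC Grb10 pA replicate 1. Lamb1, Lama5, Col4a1 and Col4a2 rose and Nid1 fell in all 5 lines. Extraembryonic endoderm markers (14 genes, among them Gata4, Gata6, Sox17, Sox7, Foxa2, Hnf4a, Dab2, Pdgfra, Afp, Ttr, Amn, Cubn and Thbd) were counted as well. Of 13 tested, 8 rose and 1 fell in WT rescue, and 13 of 13 rose in ΔZF1 rescue. In E14, as in Podxl pA and Grb10 pA, 11 of 11 rose. Their summed level was 36.1 to 81.2 CPM in rescue ESCs and 199.5 to 231 in NPC-WT, and 16.1 to 41.2 in the untreated ESCs and 547 to 713 in NPC E14. Thbd had no count in NPC E14, and Afp and Ttr had none in 1 of its libraries each. The part of such cells in the rise was not tested.

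**Figure D2:**
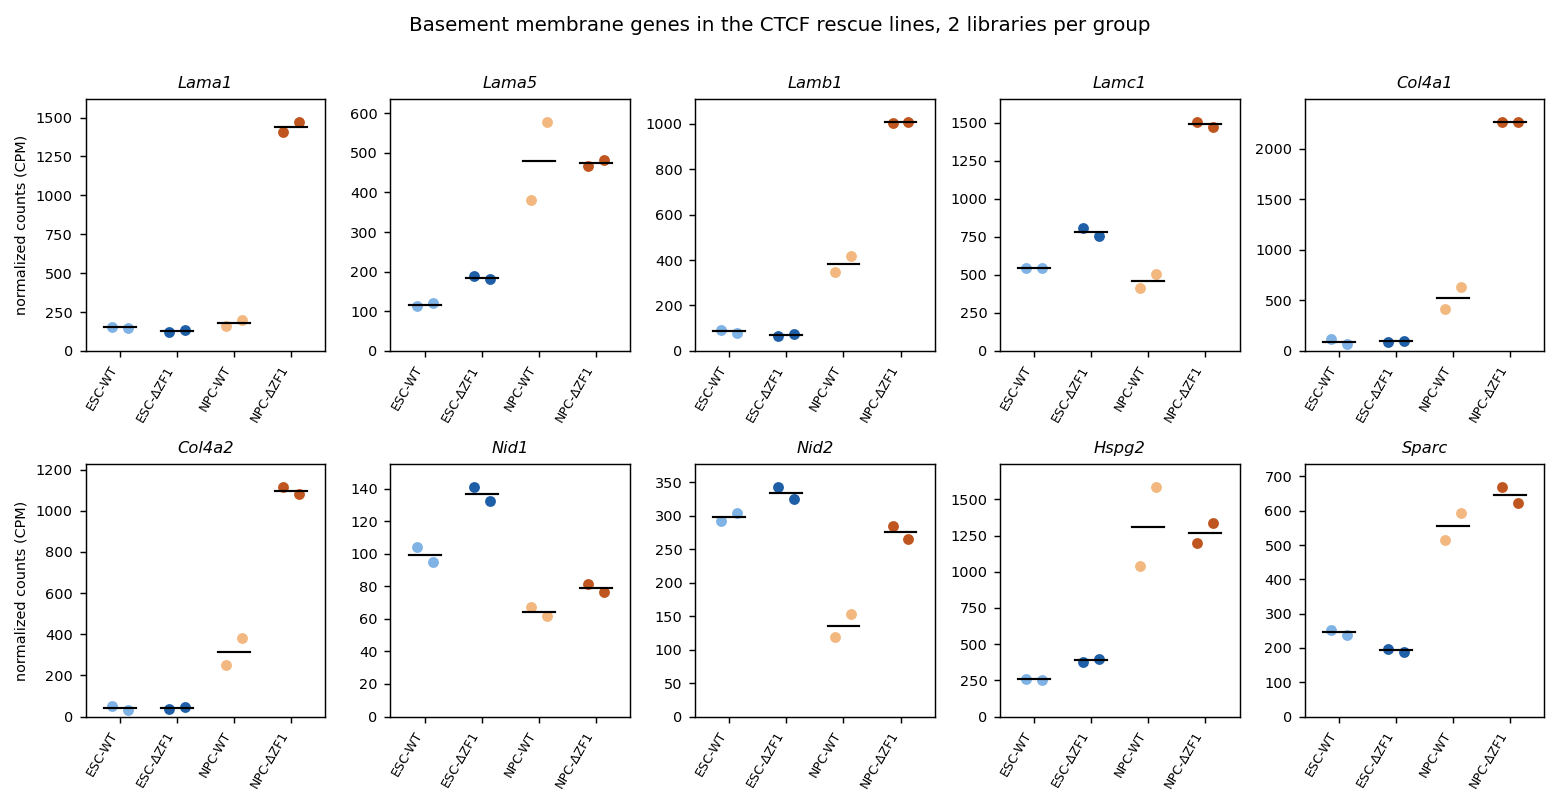
Each panel plots 1 gene in the 4 groups of the CTCF rescue lines, with normalized counts (CPM) on a linear axis from 0, a point for each of 2 libraries and a line at their mean. For Lama1 both NPC-ΔZF1 points (1409.9 and 1473) stand far above the other 6 libraries, whereas for Lama5, Hspg2 and Sparc both NPC groups are high.

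ΔZF1 was compared with WT CTCF in ESCs to see whether loss of the RNA-binding zinc finger alters the 10 genes before differentiation. Only Lamc1 was called, from 545 and 547 CPM in ESC-WT to 810.3 and 758 in ESC-ΔZF1, or 0.52 ± 0.11 on the log2 scale (adjusted p = 0.0373), where 1.29% of all genes rose and 2.33% fell. This call was lost when any of the 4 libraries was left out (adjusted p = 0.212 to 0.264), with a log2 fold change of 0.48 to 0.60. Lama5, with 114 and 120.0 against 188 and 182 CPM, had a log2 fold change of 0.66 ± 0.17 (adjusted p = 0.0583), and Hspg2, with 262 and 254 against 377 and 398, of 0.59 ± 0.17 (adjusted p = 0.0892). Both were called in DESeq2, and in edgeR without the filter on low counts (adjusted p = 2.81e-05 and 4.60e-05) or with only the ESC rescue libraries in the fit (adjusted p = 3.19e-08 and 3.78e-08). The main fit took its spread from the NPC rescue libraries as well, so its adjusted p does not reflect ESC spread alone. Nid1 passed the adjusted p but not the size cutoff (0.46 ± 0.11, adjusted p = 0.0452). Nid2 (0.16 ± 0.12), Lama1 (-0.22 ± 0.12) and Lamb1 (-0.28 ± 0.13) were not called. Col4a1 had 118 and 67.6 CPM in ESC-WT and 85.5 and 102 in ESC-ΔZF1, so that the groups overlapped (0.028 ± 0.25), as did those of Col4a2 (0.043 ± 0.27). Sparc, at -0.34 ± 0.11 (adjusted p = 0.113), lies on chromosome 11, whose tested genes had a median of -0.46 in this comparison. Of the endoderm markers Sox7 rose (2.01 ± 0.32), and of the neural markers Sox1 (0.94 ± 0.20). The endoderm list summed to 81.2 and 36.7 CPM in ESC-WT and to 36.1 and 57.3 in ESC-ΔZF1. The neural list summed to 38.2 and 46.8 CPM in ESC-WT and to 36.4 and 36.0 in ESC-ΔZF1. The part of these markers in the values of the 10 genes was not tested.

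In NPCs, 6 of the 10 genes were higher with ΔZF1 than with WT CTCF, where 7.19% of all genes rose and 10.5% fell. The 6 were the 3 laminin chains Lama1, Lamb1 and Lamc1, both collagen IV chains and Nid2. Over the 10 genes the log2 fold changes had a median of 1.21, and in each of the 14 comparisons the median over all genes tested lay between -0.021 and 0.019. Lama1 moved most, from 163 and 201 CPM in NPC-WT to 1409.9 and 1473 in NPC-ΔZF1, which is 2.99 ± 0.13 on the log2 scale and 7.94-fold (adjusted p = 6.47e-06). Lamc1, the γ chain, went from 413 and 508 to 1506 and 1470.1 CPM (1.69 ± 0.12, adjusted p = 3.34e-05). Lamb1, the β chain, went from 347 and 417 to 1003 and 1009 (1.40 ± 0.13, adjusted p = 0.000173). Every NPC-ΔZF1 library lay above every NPC-WT library for all 3 chains.

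Col4a1 went from 415 and 634 CPM in NPC-WT to 2262 and 2267 in NPC-ΔZF1 (2.11 ± 0.25, adjusted p = 0.000689), and Col4a2 from 252 and 379 to 1114 and 1082 (1.80 ± 0.25, adjusted p = 0.00136). Both NPC-ΔZF1 libraries lay above both NPC-WT libraries for each chain, and the 2 NPC-WT libraries were farther apart than the 2 of NPC-ΔZF1. Nid2 went from 119 and 153 to 285 and 265 (1.02 ± 0.13, adjusted p = 0.000747), below the ESC libraries of the same line (343 and 326 CPM).

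The other 4 genes were not called. Lama5 had 382 and 579 CPM in NPC-WT and 468 and 483 in NPC-ΔZF1 (-0.014 ± 0.16, adjusted p = 0.959), and Hspg2 had 1040.3 and 1584 and 1199 and 1339 (-0.048 ± 0.17, adjusted p = 0.86). For both genes the NPC-ΔZF1 libraries lay between the 2 NPC-WT libraries. When 1 library was left out, the log2 fold changes ranged from -0.29 to 0.30 for Lama5 and from -0.32 to 0.27 for Hspg2. These stayed below the size cutoff in either direction, and the upper values were those without NPC-WT replicate 2. Nid1 had 67.5 and 61.4 against 81.4 and 76.7 CPM (0.29 ± 0.11, adjusted p = 0.0795). Sparc had 514 and 595 against 669 and 624 (0.22 ± 0.11, adjusted p = 0.163) on a chromosome whose median was -0.57. With that median taken into the offsets, Sparc stood at 0.79 ± 0.11 (adjusted p = 0.00147) in NPCs, past both cutoffs, and at 0.11 ± 0.11 (adjusted p = 0.705) in ESCs.

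Extraembryonic endoderm markers rose here, as did Lama1, Lamb1, Lamc1 and both collagen IV chains, but not Lama5. Of the 14 markers 13 were tested and all 13 rose, and their sum was 199.5 to 231 CPM in NPC-WT and 1917 to 2002 in NPC-ΔZF1. Gata6, a transcription factor of primitive endoderm, averaged 9.20 and 78.9 CPM, and Dab2, an endocytic adaptor, 68.5 and 529.7. None of the 14 was at 0 in a library of NPC-WT or NPC-ΔZF1. Of the 6 mesenchyme markers 3 were tested, and 2 fell, Col1a1 (40.9 CPM in NPC-WT and 13.2 in NPC-ΔZF1, -1.61 ± 0.27) and Col1a2 (34.9 and 12.9, -1.42 ± 0.29), while 3 of 5 tested neural progenitor markers rose and Nes fell. The part of endodermal cells in the rise of the basement membrane genes was not tested, and the 2 rescue lines are 1 clone each, so that clone and CTCF form cannot be told apart.

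**Figure D3:**
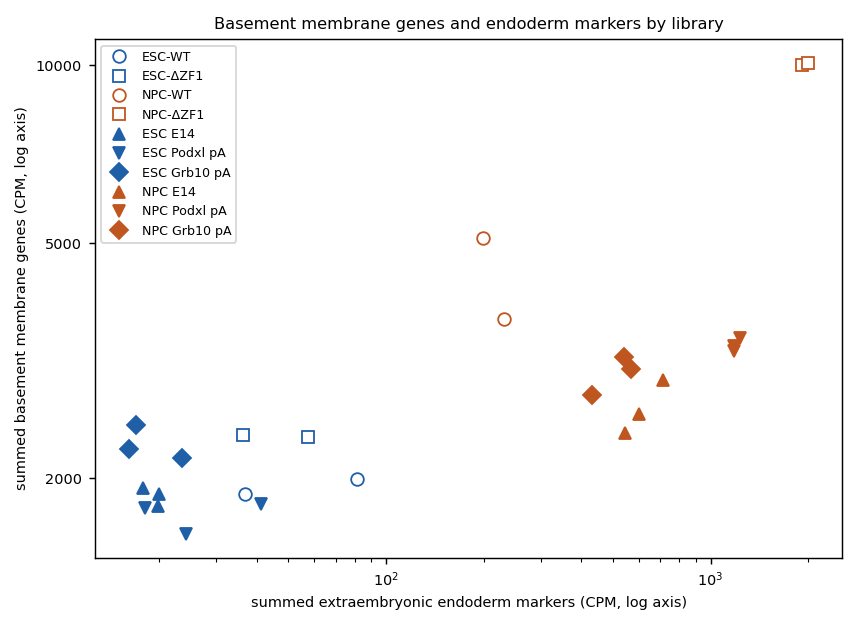
Each point is 1 of the 26 libraries, with the summed CPM of the 14 extraembryonic endoderm markers on the x axis and the summed CPM of the 10 basement membrane genes on the y axis, both logarithmic (blue for ESCs, orange for NPCs, open symbols for the rescue lines). The NPC-ΔZF1 libraries lie at the upper right (1917 to 2002 against 9997 to 10089 CPM), while NPC-WT has 3713 to 5110.1 CPM of basement membrane genes at a lower marker sum than any other NPC group.

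Whether ΔZF1 acted differently in NPCs than in ESCs was tested with a contrast over all 4 groups, and the same 6 genes passed it, all higher (background 1.59% higher and 1.11% lower). The difference was 3.21 ± 0.17 for Lama1 (adjusted p = 9.09e-05), 1.68 ± 0.18 for Lamb1 (adjusted p = 0.00252) and 1.17 ± 0.16 for Lamc1 (adjusted p = 0.00801). For Col4a1 it was 2.08 ± 0.35 (adjusted p = 0.0158), for Col4a2 1.76 ± 0.36 (adjusted p = 0.0337) and for Nid2 0.86 ± 0.18 (adjusted p = 0.0325). Lama5 (-0.67 ± 0.23, adjusted p = 0.166) and Hspg2 (-0.64 ± 0.24, adjusted p = 0.195) had negative differences that did not pass, and Sparc (0.57 ± 0.15) and Nid1 (-0.17 ± 0.15) did not pass either. Without the filter on low counts Lama5 (adjusted p = 0.00533) and Hspg2 (adjusted p = 0.00362) were called lower, and with the chromosome 11 median in the offsets Sparc was called higher (0.67 ± 0.15, adjusted p = 0.048). Leaving out ESC-ΔZF1 replicate 1 or 2, ESC-WT replicate 1, or NPC-ΔZF1 replicate 1 or 2 left only the calls of Lama1 and Lamb1, and leaving out ESC-WT replicate 2 ended those of Lamc1 and Nid2. Without NPC-WT replicate 1, Lama5 (-0.94) and Hspg2 (-0.91) were called lower, and without NPC-WT replicate 2 Sparc (0.64) was called higher.

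**Figure D4:**
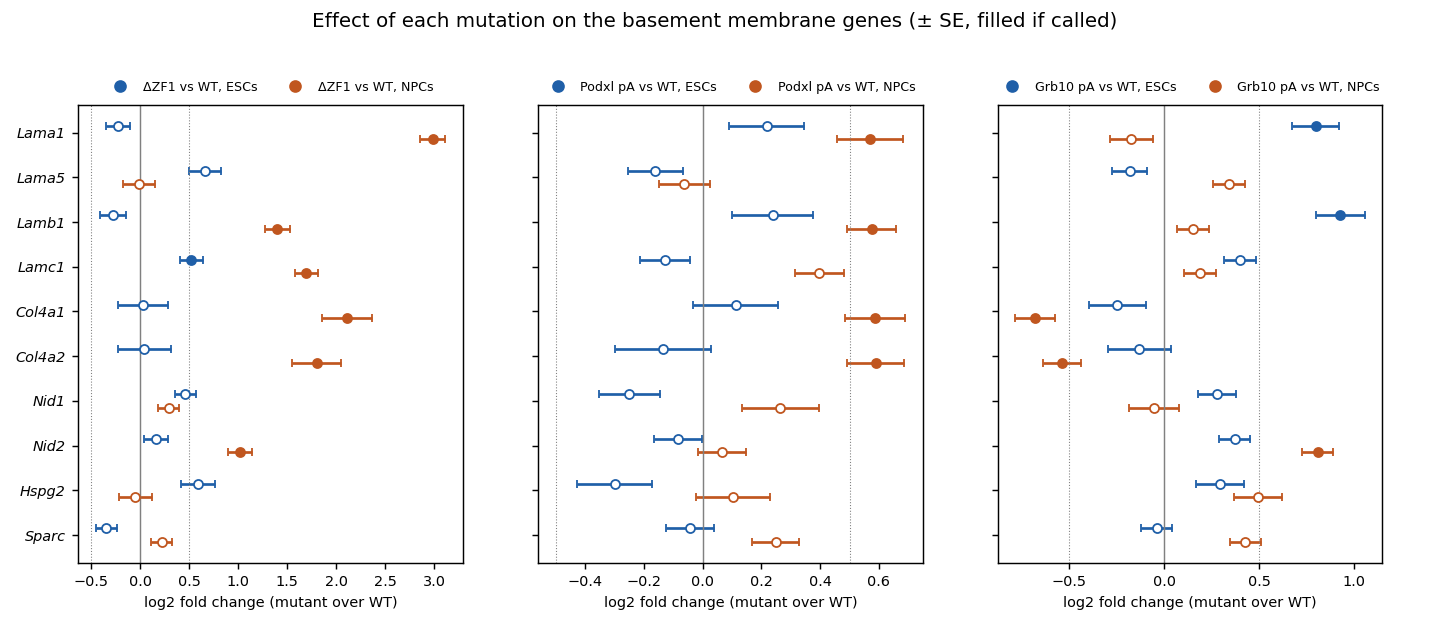
Points give the log2 fold change of each gene in the mutant over WT with its SE, in ESCs (blue) and NPCs (orange), for ΔZF1 (left), Podxl pA (middle) and Grb10 pA (right), with filled points where the gene was called and dotted lines at 0.5 in either direction. The x axes differ in scale: Lama1 reaches 2.99 in NPC-ΔZF1, and the 4 filled points of Podxl pA NPCs lie between 0.57 and 0.59.

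The RNA truncation lines were compared with parental E14, and both comparisons share the same E14 libraries. The truncated lines were expanded from single edited cells, express eGFP and also lose the protein of the gene. Loss of the RNA, loss of the protein and differences between clones therefore cannot be told apart here. In ESCs, truncation of Podxl left none of the 10 genes called by edgeR or DESeq2 (background 0.339% in either direction), and Nid1 (-0.25 ± 0.10) and Hspg2 (-0.30 ± 0.13) had an unadjusted p under 0.05. The other log2 fold changes were 0.22 for Lama1, -0.16 for Lama5, 0.24 for Lamb1, -0.13 for Lamc1, 0.11 for Col4a1, -0.13 for Col4a2, -0.083 for Nid2 and -0.042 for Sparc, and the groups of these 8 genes overlapped. In NPCs, 4 of the 10 rose, where 0.384% of all genes rose. Lamb1 had 229, 271 and 242 CPM in NPC E14 and 366, 367 and 375 in NPC Podxl pA (0.57 ± 0.084, adjusted p = 0.000396). Lama1 had 191, 283 and 233 and 324, 341 and 388 (0.57 ± 0.11, adjusted p = 0.00903). Col4a1 had 313, 369 and 367 and 491, 528 and 558 (0.59 ± 0.10, adjusted p = 0.00268), and Col4a2 had 151, 188 and 176 and 257, 256 and 266 (0.59 ± 0.10, adjusted p = 0.002). All 3 NPC Podxl pA libraries lay above all 3 of NPC E14 for these 4 genes. The call of Lama1 was lost without NPC E14 replicate 1 or NPC Podxl pA replicate 3, at log2 fold changes of 0.44 and 0.49.

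Lamc1, the partner chain of Lama1 and Lamb1, was also higher in every NPC Podxl pA library (423, 528 and 472 against 622, 625 and 629.7 CPM) but below the size cutoff (0.40 ± 0.084, adjusted p = 0.0168). Sparc (0.25 ± 0.081, adjusted p = 0.216), Nid1 (0.26 ± 0.13), Hspg2 (0.10 ± 0.13), Nid2 (0.066 ± 0.082) and Lama5 (-0.062 ± 0.086) were not called. The difference of the Podxl pA effect between NPCs and ESCs passed for none of the 10 in the edgeR fit used here (background 0.0980% in either direction), although 8 had an unadjusted p under 0.05, among them Lamc1 (0.52 ± 0.12, adjusted p = 0.0791) and Col4a2 (0.72 ± 0.19, adjusted p = 0.157). These 2 were called in DESeq2, and in edgeR without the filter on low counts or with only the groups compared in the fit. Of the 11 extraembryonic endoderm markers tested, 6 rose in NPC Podxl pA, with a sum over the list of 1177 to 1234 CPM against 547 to 713 in NPC E14, and Sox1 averaged 51.2 against 79.3. Their part in the higher laminin and collagen IV levels was not tested.

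**Figure D5:**
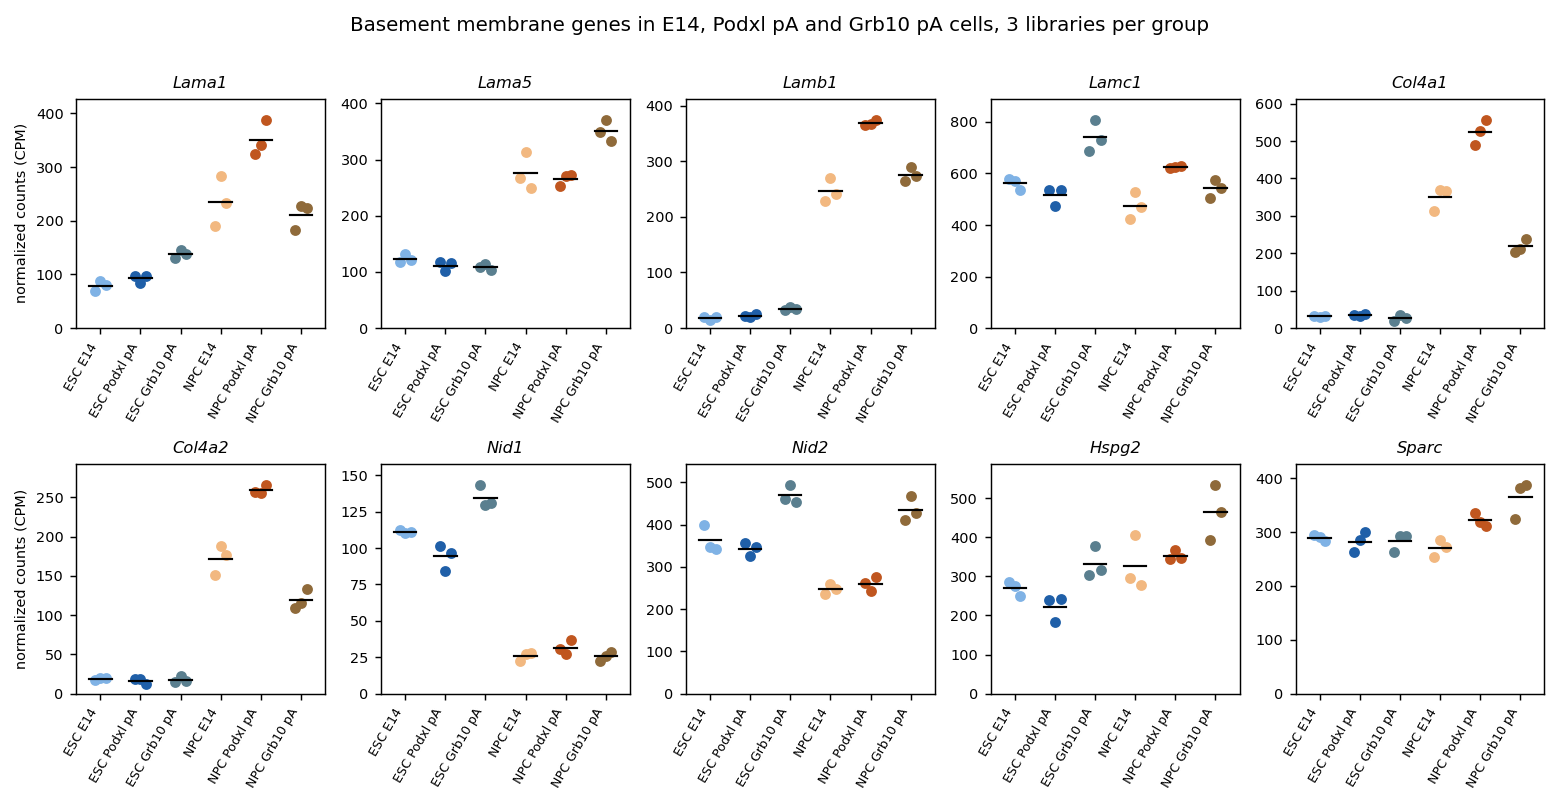
Each panel plots 1 gene in ESCs and NPCs of parental E14, Podxl pA and Grb10 pA, with normalized counts (CPM) on a linear axis from 0, a point for each of 3 libraries and a line at their mean. Lamb1, Col4a1 and Col4a2 are highest in NPC Podxl pA, Col4a1 and Col4a2 are lower in NPC Grb10 pA than in NPC E14, and Nid1 is low in all 3 NPC groups.

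Truncation of Grb10 gave another pattern. In ESCs, 2 laminin chains rose (background 4.51% higher and 4.58% lower): Lamb1 from 20.5, 14.9 and 19.8 CPM in ESC E14 to 32.0, 37.6 and 33.9 in ESC Grb10 pA (0.93 ± 0.13, adjusted p = 1.18e-05) and Lama1 from 69.3, 87.3 and 80.0 to 130.5, 145 and 137 (0.80 ± 0.12, adjusted p = 5.05e-05). Lamc1, with 579.6, 571 and 535 and 686, 809 and 729 CPM, was higher in every library but below the size cutoff (0.40 ± 0.084, adjusted p = 0.00151), and so was Nid2 (0.37 ± 0.08, adjusted p = 0.00202). The extraembryonic endoderm markers summed to 16.1 to 23.6 CPM in ESC Grb10 pA and 17.88 to 20.03 in ESC E14, with 1 of 11 called higher (Pdgfra). Nid1 (0.28 ± 0.10), Hspg2 (0.29 ± 0.13), Lama5 (-0.18 ± 0.093) and Sparc (-0.038 ± 0.082) were not called.

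In NPCs, Nid2 rose in Grb10 pA (background 7.90%), from 237, 260.1 and 247 to 409.8, 469 and 426 CPM (0.81 ± 0.081, adjusted p = 4.42e-08), with all 3 libraries above those of ESC E14 (399, 347 and 342 CPM). Col4a1 and Col4a2 fell (background 8.64%), from 313, 369 and 367 to 204, 212 and 239 CPM (-0.68 ± 0.10, adjusted p = 1.89e-05) and from 151, 188 and 176 to 108, 116 and 133 (-0.54 ± 0.10, adjusted p = 0.000233). Both lie on chromosome 8, whose genes had a median of -0.48 in Grb10 pA NPCs and -0.49 in Grb10 pA ESCs. With that median in the offsets, neither was called in NPCs (Col4a1 -0.20 ± 0.10, adjusted p = 0.166; Col4a2 -0.054 ± 0.10, adjusted p = 0.738), and in ESCs their log2 fold changes went from -0.25 and -0.13 to 0.24 and 0.36, uncalled either way. The call of Col4a2 was also lost without NPC E14 replicate 2 (-0.46) or NPC Grb10 pA replicate 1 (-0.46).

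Hspg2 (0.49 ± 0.12, adjusted p = 0.00396), Sparc (0.43 ± 0.081, adjusted p = 0.000265) and Lama5 (0.34 ± 0.085, adjusted p = 0.00384) passed the adjusted p but not the size cutoff in NPC Grb10 pA. Hspg2 passed both without NPC E14 replicate 2 (0.69) or NPC Grb10 pA replicate 1 (0.60), and Sparc without the latter (0.51). Lama1 (-0.17 ± 0.11), Lamb1 (0.15 ± 0.084), Lamc1 (0.19 ± 0.084) and Nid1 (-0.052 ± 0.13) were not called, with groups that overlapped. The difference of the Grb10 pA effect between NPCs and ESCs was called for Lama1 (-0.97 ± 0.17, adjusted p = 0.000691) and Lamb1 (-0.77 ± 0.15, adjusted p = 0.00276), which were lower in NPCs (background 3.04%), and for Lama5 (0.52 ± 0.13, adjusted p = 0.0123), which was higher (background 2.86%) and was lost in 5 of the 12 fits that left out 1 library. In NPC Grb10 pA, 3 of 11 endoderm markers fell (sum 431 to 568 CPM), and 4 of 4 tested neural progenitor markers fell (sum 36.9 to 47.4 against 115 to 121 CPM in NPC E14). Their part in these values was not tested.

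Other genes of the pathway were counted in 5 lists. Of all genes tested, 1.29% rose and 2.33% fell in ESC-ΔZF1, and 7.19% and 10.5% in NPC-ΔZF1. From ESCs to NPCs the shares were 22.0% and 19.9% in WT rescue and 20.4% and 16.9% in ΔZF1 rescue. They were 16.5% and 16.3% in E14, 17.1% and 14.7% in Podxl pA and 17.2% and 17.4% in Grb10 pA. Against E14 they were 4.51% and 4.58% in ESC Grb10 pA and 7.90% and 8.64% in NPC Grb10 pA. The list counts were not tested against these shares. Of the remaining laminin and collagen IV chains, 9 of 11 were tested in the rescue lines and 5 in the others. None was called in ESC-ΔZF1, and in NPC-ΔZF1 4 fell and 0 rose, among them Col4a6 (1.90 CPM in NPC-WT and 0.451 in NPC-ΔZF1, -1.998 ± 0.46) and Col4a5 (5.51 and 1.94; -1.47 ± 0.34). From ESCs to NPCs, 4 rose and 1 fell in WT rescue, 4 and 2 in ΔZF1 rescue, 1 and 3 in E14, 1 and 2 in Podxl pA, and 1 and 2 in Grb10 pA. In WT rescue, Col4a6 (4.23 ± 0.76) and Col4a5 (3.31 ± 0.49) rose most on differentiation. Podxl pA called 0 of them in either cell type and Grb10 pA 0 in ESCs, while in Grb10 pA NPCs Lama3 rose (2.05 ± 0.32).

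Of the enzymes and chaperones that process collagen and laminin, 12 of 12 were tested in the rescue lines and 11 in the others. In NPC-ΔZF1 5 rose and 1 fell. P4ha1, a prolyl hydroxylase subunit that collagen folding needs, went from 26.8 to 124 CPM (2.20 ± 0.11, adjusted p = 8.67e-06), and Plod2, a lysyl hydroxylase, from 33.3 to 103 (1.61 ± 0.17). P4ha2, on chromosome 11, fell (-0.58 ± 0.18). In ESC-ΔZF1 P4ha2 (-1.20 ± 0.21) and the peroxidasin Pxdn (-0.69 ± 0.15) fell and 0 rose. The difference of the ΔZF1 effect was called higher for 5 of the 12, P4ha1 (2.29 ± 0.16) among them. Differentiation raised 9 and lowered 1 in WT rescue, 11 and 0 in ΔZF1 rescue, and 5 and 1 in E14 as in Podxl pA and Grb10 pA. Pxdn, which cross-links collagen IV, rose from 14.03 to 97.8 CPM in E14 (2.76 ± 0.14). Plod2 was the only gene of the 5 lists called in NPC Podxl pA (0.55 ± 0.10, adjusted p = 0.00286). In Grb10 pA 2 rose in ESCs and 3 in NPCs, with P4ha1 at 1.38 ± 0.093 in NPCs.

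Among 15 other basement membrane components (12 tested in the rescue lines, 10 in the others), 2 rose and 2 fell in NPC-ΔZF1, and Smoc1, a calcium-binding matrix protein, fell in NPCs (-1.84 ± 0.15) and in ESCs (-1.78 ± 0.15), the only call of that list in ESC-ΔZF1. Col18a1, the source of endostatin, rose on differentiation in WT rescue (124 to 1183 CPM; 3.26 ± 0.23) and in E14 (3.44 ± 0.11). The list had 8 higher and 1 lower in WT rescue, 9 and 1 in ΔZF1 rescue, 6 and 1 in E14, 6 and 1 in Podxl pA, and 4 and 3 in Grb10 pA. Col18a1 was its only call in ESC Podxl pA (0.53 ± 0.11), with 0 in NPC Podxl pA. Grb10 pA raised 4 in ESCs and 2 in NPCs and lowered 0.

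Of 10 receptors (9 tested in the rescue lines, 8 in the others), 0 were called in ESC-ΔZF1, and in NPC-ΔZF1 Itga1 (1.19 ± 0.29) and Itgb1 (0.51 ± 0.11) rose and Itgb4 (-1.01 ± 0.19, on chromosome 11) and Ddr1 (-0.95 ± 0.18) fell. Itga3, an integrin chain that binds laminin, rose on differentiation in WT rescue (2.03 ± 0.13) and E14 (1.12 ± 0.085), where 7 and 3 receptors rose and 0 fell. The counts were 6 and 0 in ΔZF1 rescue, 4 and 1 in Podxl pA, and 2 and 0 in Grb10 pA. Itgb1, which lies on chromosome 8, fell in Grb10 pA ESCs (-0.88 ± 0.08) and NPCs (-0.54 ± 0.078), as the only receptor called, and Podxl pA called 0. Of 6 proteases and inhibitors, all tested, Timp2 on chromosome 11 was the only call for ΔZF1, lower in ESCs (-1.31 ± 0.22) and NPCs (-0.72 ± 0.17). On differentiation 5 rose and 1 fell in WT rescue as in ΔZF1 rescue, 4 and 1 in E14, 3 and 1 in Podxl pA, and 3 and 2 in Grb10 pA, with Mmp9 at 3.34 ± 0.23 in WT rescue and 3.61 ± 0.30 in E14. Podxl pA called 0 of the 6. Grb10 pA raised Timp2 in ESCs (1.37 ± 0.31) and lowered Mmp2 (-0.59 ± 0.18, on chromosome 8) and Mmp14 (-0.55 ± 0.16) in NPCs. Over the 5 lists, genes with a lower difference of the ΔZF1 effect included Itga6 (-0.65 ± 0.14). The difference of the Podxl pA effect was called for 0 genes, and that of the Grb10 pA effect was higher for Lama3 (1.45 ± 0.41) and P4ha1 (0.87 ± 0.14) and lower for genes that included Col18a1, Fbln1 and Timp2.

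The genes outside the 10 whose pattern was most like the mean of Lama1, Lamb1 and Lamc1 were Lrpap1 (Pearson r = 0.976), Gas6 (0.958), Tfec (0.956), Gata6 (0.955) and Stard8 (0.953), over 26 libraries and among 10431 genes with a mean of at least 5 CPM in both tables. Lrpap1 encodes the receptor-associated protein, a chaperone of lipoprotein receptors, and Gas6 is a secreted ligand of receptor tyrosine kinases. Within the 8 rescue libraries their r was 0.994 and 0.992, and within the 18 others 0.976 and 0.935. The 3 chains did not share 1 pattern. Against their mean, which holds the chain itself, Lama1 had an r of 0.971 and Lamb1 of 0.947, but Lamc1 only 0.464. Against that mean Lamc1 had 0.788 within the 8 rescue libraries and 0.0017 within the 18 others. Between chains, r was 0.851 for Lama1 and Lamb1, 0.605 for Lama1 and Lamc1, and 0.168 for Lamb1 and Lamc1. Against the same mean, Col4a1 had an r of 0.941, Lama5 of 0.828, Hspg2 of 0.692, Sparc of 0.63, Nid2 of -0.251 and Nid1 of -0.715. Libraries of a group share their cells and culture, and these values are given without a test.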

How the data were processed

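RNA-seq was run on 26 libraries in 10 groups, from rRNA-depleted RNA with a directional kit and paired reads. The authors aligned reads to mm10 with STAR and deposited raw read counts per gene from featureCounts, counted without strand, in 1 table for the 8 CTCF rescue libraries and 1 for the 18 others. The STAR version and the annotation used for counting are not given in the sources used here. Another 3 columns matched no sample and were not used.

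Each table was analysed on its own in R 4.3.3 with edgeR 4.0.16 (filterByExpr, TMM, quasi-likelihood F test, group means, no replicate term). Calls needed a Benjamini-Hochberg adjusted p no higher than 0.05 and a change of 0.5 or more on the log2 scale. SE is the log2 fold change over the square root of F. The SE includes counting error, and depth ranged from 1907505 to 28730435 counts. Alternatives were DESeq2 1.42.0, RLE scaling, other filters, only the groups compared, a replicate block, an adjusted p of 0.01, leaving out each library, and the median of chromosome 11 (ΔZF1) or 8 (Grb10 pA) in the offsets. The scripts were tested on simulated data. Correlations used log2 CPM with a prior count of 2, centred within each table. The 10 genes, the gene lists and the marker lists were chosen with earlier results of these data known. All 10 genes are given in every comparison. From each pathway list at most the 2 called genes with the largest change in each direction were named, and the 5 genes most alike. Same-numbered replicates of the groups compared did not deviate together in every pair, so the numbers were not used as pairs. Some items of the gene lists are not reported here by name, and the list counts and sums include them.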

Additional observations from a re-analysis of the deposited data

Results flagged for a closer look

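The effect of ΔZF1 differed between NPCs and ESCs, by a test of the difference itself (edgeR, NPC effect minus ESC effect on the log2 scale), for Lama1 (3.21), Col4a1 (2.08), Col4a2 (1.76), Lamb1 (1.68), Lamc1 (1.17) and Nid2 (0.86). The effect of Grb10 pA differed between NPCs and ESCs for Lama1 (-0.97), Lamb1 (-0.77) and Lama5 (0.52). Groups of 2 or 3 libraries were not searched for single outlying samples.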

How the results depend on the processing

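Over 140 values of the 10 genes in 14 comparisons, 1960 alternative values were computed, of which 1856 kept their direction and call, 48 lost a call, 37 gained one and 19 changed sign, none of them a called value. In ESCs with ΔZF1 the count of 1 called gene became 0 at an adjusted p of 0.01, with the replicate block and with the chromosome 11 median in the offsets, 3 with DESeq2, without a filter and with only the groups compared, and 0 to 0 when a library was left out. The 6 calls of the difference of the ΔZF1 effect became 3 at an adjusted p of 0.01, 8 without a filter, 7 with the chromosome 11 median and 2 to 8 when a library was left out. The 3 calls of Grb10 pA in NPCs became 1 with the chromosome 8 median. The 0 calls of the difference of the Podxl pA effect became 2 with DESeq2, without a filter and with only the groups compared, and 0 to 1 when a library was left out. Calls over all genes moved as well. In ESCs with ΔZF1 they went from 601 of 16641 to 52 at an adjusted p of 0.01. They were 1088 of 34169 without a filter and 1601 of 15186 with only the groups compared. For the difference of the ΔZF1 effect, 449 of 16641 became 74 at an adjusted p of 0.01 and 1139 of 34169 without a filter. For the difference of the Podxl pA effect, 13 became 46 with DESeq2. The cause of these changes was not tested.

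Signs changed for Sparc in ESC-ΔZF1 with the chromosome 11 median (0.11), for Lama5 in NPC-ΔZF1 with at least 10 counts in every library (0.00103) and with the replicate block (0.00126), and for Col4a1 (0.24) and Col4a2 (0.36) in ESC Grb10 pA with the chromosome 8 median. When a library was left out, the ranges that crossed 0 were -0.32 to 0.49 (Col4a1) and -0.34 to 0.51 (Col4a2) in ESC-ΔZF1, -0.29 to 0.30 (Lama5) and -0.32 to 0.27 (Hspg2) in NPC-ΔZF1, -0.083 to 0.00702 (Sparc) in ESC Podxl pA, -0.13 to 0.046 (Lama5) in NPC Podxl pA, -0.30 to 0.00585 (Col4a2) and -0.073 to 0.013 (Sparc) in ESC Grb10 pA and -0.14 to 0.062 (Nid1) in NPC Grb10 pA.

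The labels number replicates alike across groups, but same-numbered libraries did not correlate above 0.1 in every pair. With the replicate block the difference of the ΔZF1 effect had 4 calls, with Col4a2 (adjusted p = 0.0627 in edgeR) and Nid2 (adjusted p = 0.0578) lost, ESC-ΔZF1 had 0, and Grb10 pA NPCs had 4. The block changed no other count.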
